A study of Mus musculus with 6 samples.

Results

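Levels of 45 genes that sense DNA damage or repair it were compared between control HT22 cells and HT22 cells given aluminum maltolate. The genes were taken from a list of core checkpoint kinases, break sensors and repair enzymes. They were sorted by textbook role into 8 routes and make up 45 of the 21878 genes of the deposited table. HT22 is an immortalized mouse line of hippocampal origin. The study compared a control group of 3 libraries with a group of 3 libraries from cells exposed to 120 µM aluminum maltolate, written Al below, for 24 h. The libraries were the input libraries of an m6A immunoprecipitation experiment, made from fragmented RNA that had not been enriched for methylated fragments. The labels give the groups only as the letters C and M. The study describes a control in medium alone and a control with the ligand maltol, and which of them was sequenced is not stated. No gene was deleted or overexpressed in either group, and both came from the same line. The 3 libraries of a group are called biological replicates, but how the cultures were kept apart is not described. P values therefore measure only the spread between these libraries.

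Cells meet broken DNA with sensors, kinases and repair enzymes that act in order. The complex of MRE11, RAD50 and NBN binds broken ends and activates the kinase ATM, and exposed single strands activate the kinase ATR. These kinases switch on CHK2 and CHK1, which halt the cell cycle. Breaks across both strands are then rejoined by end joining or copied from the sister chromatid by homologous recombination, a route open mainly after replication. Damaged bases, bulky lesions, crosslinks and copying errors each have a route of their own, namely base excision, nucleotide excision, the Fanconi pathway and mismatch repair. Neurons that no longer divide rely on end joining and the excision routes, whereas a dividing line such as HT22 can use all of them.

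FPKM, which are fragment counts scaled by transcript length and sequencing depth, were divided by a size factor for each library, and such values are called scaled FPKM. Differences are given as Al minus control on log2(scaled FPKM + 0.1), fitted with limma over 12889 genes whose mean FPKM reached 0.1. Calls took the thresholds of the study, an absolute log2 difference over 0.58 together with an unadjusted P under 0.05. All 45 repair genes passed the filter on low values, and the smallest number of reads behind any of their values was 36, for Xrcc4 in 2 Al libraries. Control libraries rested on 38059492 to 44556768 reads and Al libraries on 21125631 to 26670978 reads, so the Al values carry more counting error. Of 10 neuronal markers only Tubb3, Syp and Eno2 reached a mean FPKM of 0.1, while Rbfox3, Map2, Snap25, Nefl, Nefm, Dcx and Stmn2 did not. None of 4 markers of hippocampal excitatory neurons and none of 3 neural progenitor markers reached it either. Of the glial markers, 2 of 4 astrocyte, 1 of 4 oligodendrocyte and 3 of 4 microglial genes were tested. All 5 mesenchymal markers were tested, and Vim stood at 1160 FPKM and Col1a1 at 990 FPKM in the control mean, so the labelled neuronal identity had little support in these markers. Some markers moved with Al. The summed scaled FPKM of the mesenchymal list was 4160 to 5510 in control and 7030 to 10300 in Al libraries, with S100a4 (1.31) and Col1a1 (0.92) called higher and Vim, Col1a2 and Col3a1 not called. That of the astrocyte list was 11.8 to 19.4 in control and 1.89 to 2.80 in Al libraries, with Slc1a3 called lower (-2.96), Aldh1l1 not called and Aqp4 at 0 in all 6 libraries. The microglial sum overlapped between the groups, at 0.55 to 1.0 and 0.725 to 1.66, with Cx3cr1 called higher (2.14) and P2ry12 at 0. The neuronal sum also overlapped, at 6.47 to 8.08 and 4.77 to 8.05, with Snap25 and Nefm at 0. The part of these markers in the differences of the repair genes was not tested.

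Repair genes moved in both directions under Al, with more of them lower than higher. Of the 45 genes, 17 were called lower and 5 were called higher, and 23 were not called. The lower share was 37.8% of the repair genes beside 24.4% of all tested genes, and the higher share was 11.1% beside 26.2%. All 22 calls also had an adjusted P under 0.05 (limma, Benjamini-Hochberg over all tested genes). The median difference was -0.21 over the repair genes and 0.03 over all tested genes. In 20 genes every Al library lay below every control library, which held for 33.1% of all tested genes. In 10 genes every Al library lay above every control library, which held for 35.1% of all tested genes. The groups overlapped in the other 15. In bulk RNA a lower level can mean less RNA in each cell or fewer cells that express the gene, and the 2 readings cannot be told apart.

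**Figure D1:**
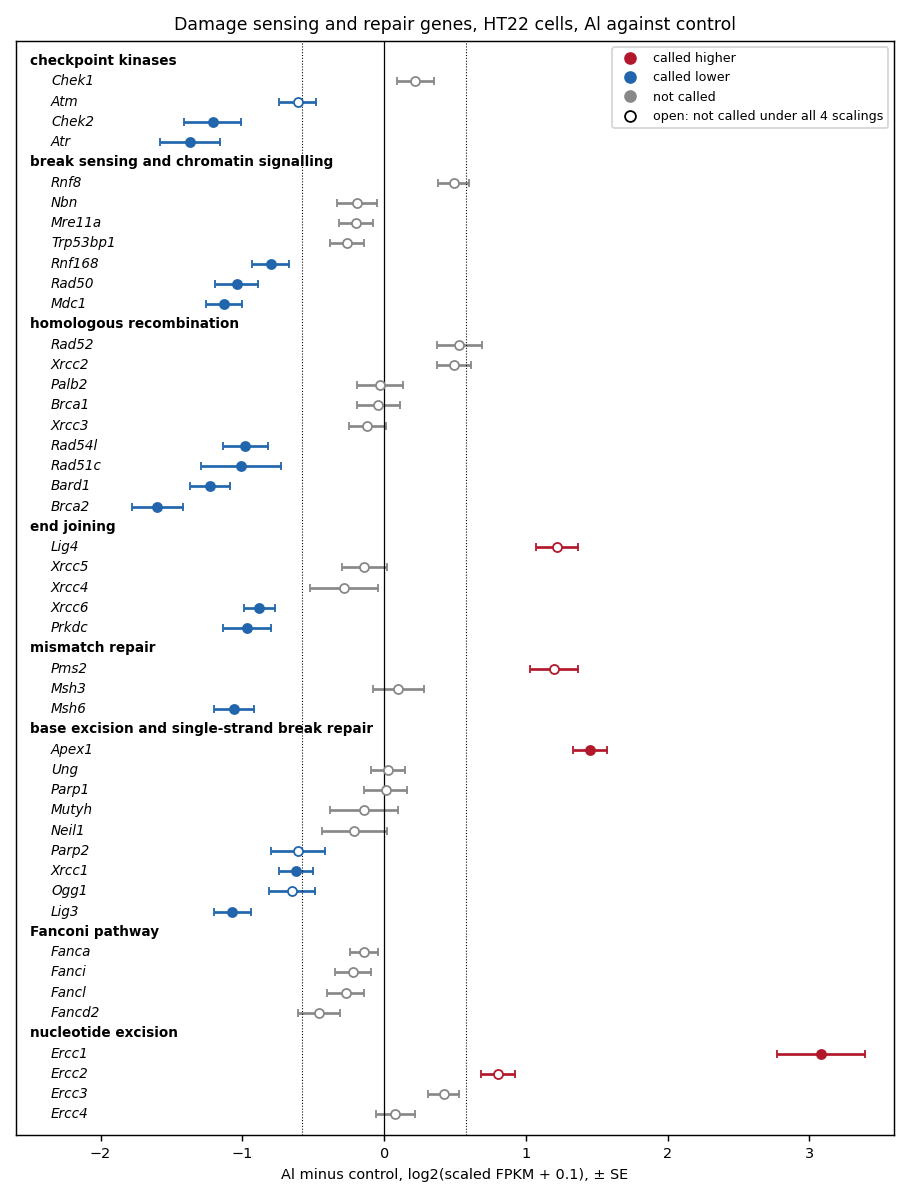
Difference between Al and control libraries for each of the 45 genes, as log2(scaled FPKM + 0.1) with its standard error, grouped by route. Dotted lines mark 0.58 in either direction, and filled symbols mark genes called under all 4 scalings. Calls to the left number 17 and calls to the right number 5, with Ercc1 farthest right at 3.08 and Brca2 farthest left at -1.60.

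With size factors the extremes of this range were Ercc1 and Apex1 on the higher side and Brca2 and Atr on the lower side, and their promoters are shown because the data turn on these genes. Each window runs from 250 bases before to 50 bases after a transcription start in RefSeq on GRCm38.p6, on the plus strand. Capitals mark matches, on either strand, to CCAAT, the core of the site bound by NF-Y, or to TTTNNCGC, a core of the site bound by E2F factors.
Ercc1, chr7:19344821-19345120: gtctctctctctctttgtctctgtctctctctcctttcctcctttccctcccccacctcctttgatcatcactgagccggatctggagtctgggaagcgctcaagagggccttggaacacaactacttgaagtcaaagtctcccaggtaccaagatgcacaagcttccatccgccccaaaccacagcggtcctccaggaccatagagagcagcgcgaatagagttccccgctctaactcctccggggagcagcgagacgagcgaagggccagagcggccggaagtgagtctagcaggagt
Apex1, chr14:50924699-50924998: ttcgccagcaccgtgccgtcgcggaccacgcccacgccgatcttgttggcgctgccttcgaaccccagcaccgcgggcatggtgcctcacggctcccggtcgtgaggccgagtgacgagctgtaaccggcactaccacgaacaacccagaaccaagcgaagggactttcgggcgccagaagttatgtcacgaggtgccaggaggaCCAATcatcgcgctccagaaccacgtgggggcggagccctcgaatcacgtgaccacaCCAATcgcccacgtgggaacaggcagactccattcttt
Brca2, chr5:150522371-150522670: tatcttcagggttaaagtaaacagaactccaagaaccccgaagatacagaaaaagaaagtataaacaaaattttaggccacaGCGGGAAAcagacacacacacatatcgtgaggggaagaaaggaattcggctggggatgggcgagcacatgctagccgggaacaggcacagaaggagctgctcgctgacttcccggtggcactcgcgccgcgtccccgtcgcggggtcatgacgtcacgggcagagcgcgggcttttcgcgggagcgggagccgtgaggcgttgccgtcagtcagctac
Atr, chr9:95857347-95857646: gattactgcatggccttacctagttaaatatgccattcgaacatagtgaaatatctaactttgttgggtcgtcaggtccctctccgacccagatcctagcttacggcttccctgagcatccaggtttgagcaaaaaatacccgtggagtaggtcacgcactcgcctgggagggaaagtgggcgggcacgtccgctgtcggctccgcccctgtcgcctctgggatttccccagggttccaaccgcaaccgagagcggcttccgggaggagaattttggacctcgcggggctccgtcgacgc
The Apex1 window held 2 matches to CCAAT and the Brca2 window held 1 match to TTTNNCGC. The windows of Ercc1 and Atr held neither. In the GENCODE annotation Ercc1 begins at chr7:19344778, so its window lies inside the annotated gene. The bases before that start were not searched.

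Promoter windows were found for 39 of the 45 genes, with 43 windows in all. TTTNNCGC lay in 20.9% of these windows, in 6.23% of the 19891 windows of genes in the deposited table and in 5.17% of all 32851 RefSeq windows. CCAAT lay in 51.2%, 38.1% and 37.4% of them. Counted by gene, TTTNNCGC was found for 7 of the 15 genes called lower that had a window, namely Bard1, Brca2, Chek2, Mdc1, Msh6, Rad51c and Xrcc6. Of the 19 uncalled genes with a window only Msh3 held it, and of the 5 genes called higher none did. CCAAT was found for 8 of the 15 lower, 9 of the 19 uncalled and 3 of the 5 higher genes. The split by call was not made for other genes, so it has no background beside it, and it was not tested. A match describes the letters in the window, and binding of a factor was not measured.

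The counts of calls by route that follow rest on 3 to 9 genes each and stand beside 24.4% of all tested genes called lower and 26.2% called higher, and no route was tested as a group. Of the 4 checkpoint kinases, 3 were called lower, and Chek1 was not called. Atr, on chr9:95857597-95951781, encodes the kinase that answers stalled replication forks and exposed single strands. Its scaled FPKM was 4.49, 4.30 and 4.11 in control and 1.27, 2.21 and 1.44 in Al libraries. The groups were far apart, with a log2 difference of -1.37 ± 0.21 (SE) and an adjusted P of 0.000563. Chek2, on chr5:110839979-110874145, encodes the effector kinase activated by ATM. Its scaled FPKM was 7.16, 8.01 and 8.17 in control and 2.83, 2.75 and 4.61 in Al libraries. All 3 Al values were lower than the lowest control value, and Al replicate 3 was the nearest to control, with a difference of -1.21 ± 0.20 and an adjusted P of 0.000867.

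Atm, on chr9:53439149-53536740, encodes the kinase that answers broken ends. Its scaled FPKM was 7.91, 8.01 and 7.79 in control and 4.72, 4.79 and 6.04 in Al libraries. The groups did not overlap, and the difference of -0.61 ± 0.13 (adjusted P = 0.0035) lay just past the threshold. The Atm call was lost without Al replicate 1 (-0.54), without Al replicate 2 (-0.55) and under quantile normalization (-0.40), and with the trend in gene length removed the difference was -0.29. Chek1, the effector kinase downstream of ATR, stood at 5.63, 5.65 and 5.26 in control and at 5.67, 6.68 and 7.0 in Al libraries. Its lowest Al value barely cleared its highest control value, and the difference of 0.22 ± 0.13 was not called (adjusted P = 0.161). Chek1 lay on the lower side of 0 when FPKM were used as deposited (-0.26) or scaled to a common sum (-0.56).

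**Figure D2:**
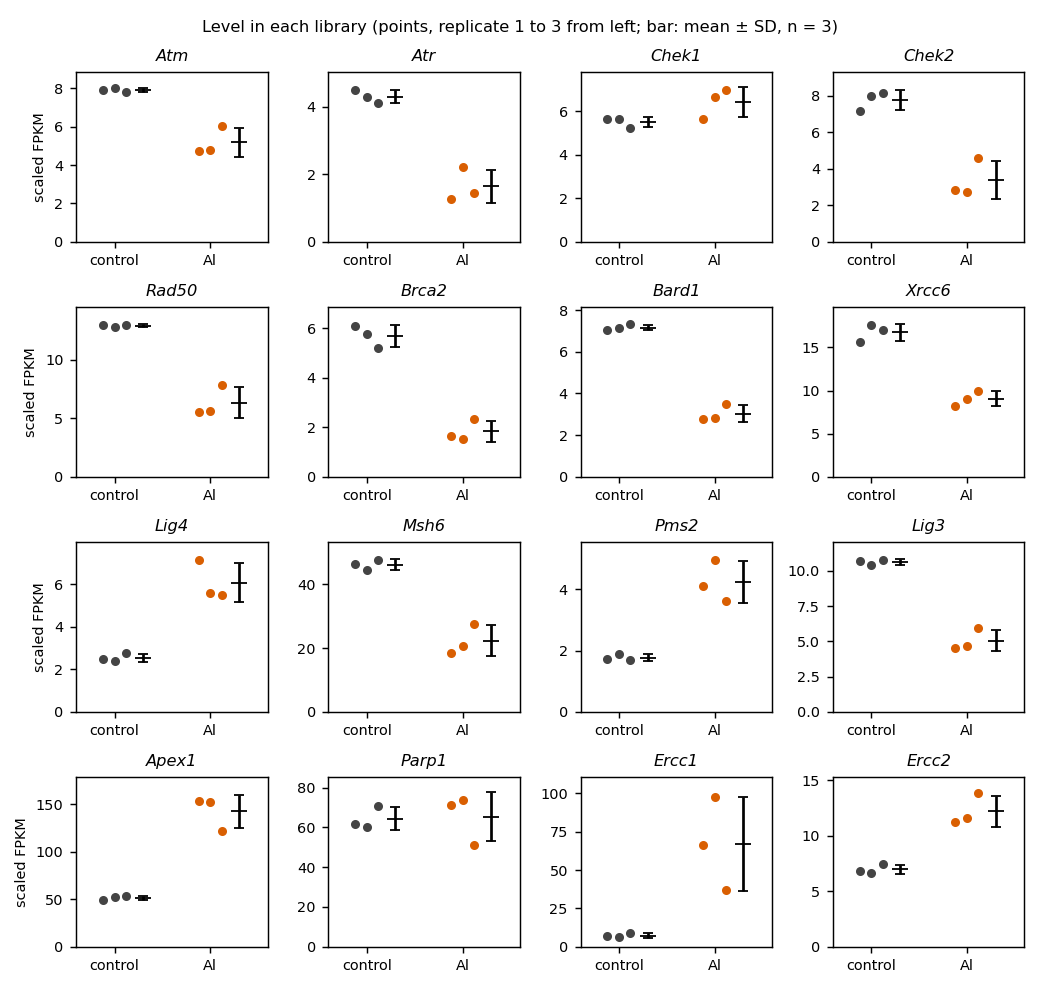
Scaled FPKM of 16 of the genes in each of the 6 libraries, with the group mean and SD beside the points and the vertical axis starting at 0. Atr, Chek2, Brca2 and Bard1 show Al points well below the control points, Parp1 shows overlapping groups, and Ercc1 shows Al points from 36.9 to 97.9 against 6.22 to 8.99 in control.

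Among the sensors and chromatin signals at breaks, 3 of 7 genes, or 42.9% beside 24.4% of all tested genes, were called lower and none higher. Mdc1, on chr17:35841515-35859670, encodes the scaffold that reads phosphorylated H2AX. It stood at a scaled FPKM of 16.2, 14.7 and 13.7 in control and 7.17, 5.70 and 7.41 in Al libraries, with a difference of -1.13 ± 0.13 (adjusted P = 0.000135). No Al library came near the lowest control library. Rad50, on chr11:53649519-53707319, encodes the long coiled-coil ATPase that tethers broken ends. It stood at 13.0, 12.8 and 13.0 in control and 5.51, 5.61 and 7.89 in Al libraries, with a difference of -1.04 ± 0.15 (adjusted P = 0.000396). The control values were nearly identical, and the Al values were all lower.

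Rnf168, a ubiquitin ligase that extends the ubiquitin mark at breaks, was at 15.8, 15.3 and 13.9 in control and 7.32, 9.76 and 8.85 in Al libraries, a difference of -0.80 ± 0.13 (adjusted P = 0.00075). The groups did not overlap. Rnf8, the ligase that starts the same mark, was at 9.73 ± 0.145 in control and 13.8 ± 1.35 in Al libraries (SD, n = 3 each), a difference of 0.49 that did not reach the threshold. Rnf8 was at -0.29 when the libraries were scaled to a common sum. The partners of RAD50 were not called, with differences of -0.20 for Mre11a, the nuclease of the complex, and -0.19 for Nbn, its adaptor to ATM. Trp53bp1, which encodes 53BP1 and favours end joining, differed by -0.26 and was not called, although its Al libraries were all below control.

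Homologous recombination had 4 of 9 genes called lower, or 44.4% beside the same 24.4%, and none called higher. Brca2, on chr5:150522630-150570329, encodes the protein that loads the recombinase onto single strands. It stood at a scaled FPKM of 6.07, 5.75 and 5.21 in control and 1.65, 1.52 and 2.33 in Al libraries. With size factors this was the largest fall among the 45 genes, with a difference of -1.60 ± 0.18 and an adjusted P of 0.000121, and the groups were well separated. Under quantile normalization Msh6 (-1.33) lay below Brca2 (-1.31), and without Al replicate 2 Atr (-1.59) lay below Brca2 (-1.48). Bard1, on chr1:71027498-71103146, encodes the obligate partner of BRCA1. It stood at 7.04, 7.12 and 7.31 in control and 2.75, 2.81 and 3.49 in Al libraries, with a difference of -1.23 ± 0.14 (adjusted P = 0.000105). Replicates within each group lay close together compared with the gap between the groups.

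Rad51c, a paralog of the recombinase that helps to build its filament, was at 4.86, 4.51 and 4.07 in control and 2.90, 1.30 and 2.69 in Al libraries. Its Al libraries spread widely but stayed below control, with a difference of -1.01 ± 0.28 (adjusted P = 0.0116). Without Al replicate 2 the difference was -0.65, still past the threshold. Rad54l, a motor protein that drives strand exchange, was at 8.74, 8.53 and 9.96 in control and 4.08, 4.08 and 5.66 in Al libraries, a difference of -0.98 ± 0.16 (adjusted P = 0.000708). Here too the groups were apart. Brca1 itself differed by -0.04 and Palb2, the bridge between BRCA1 and BRCA2, by -0.03. The recombinase paralog Xrcc3 differed by -0.12, and none of these was called. Xrcc2, another paralog, and Rad52, a strand-annealing protein, differed by 0.49 and 0.53 and were not called, although every Al library was above every control library in both. Under quantile normalization Xrcc2 (0.67) and Rad52 (0.83) passed as higher, and with a common sum both were below 0, at -0.29 and -0.23.

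End joining split by gene, with 2 of 5 called lower (40%, beside 24.4% of all tested genes) and 1 called higher (20%, beside 26.2%). Prkdc, on chr16:15637866-15842235, encodes the catalytic subunit of the DNA-dependent protein kinase. It stood at a scaled FPKM of 4.24, 3.99 and 3.27 in control and 2.13, 1.83 and 1.76 in Al libraries, with a difference of -0.97 ± 0.17 (adjusted P = 0.00105). Xrcc6, on chr15:81987835-82040085, encodes Ku70, which caps broken ends. It stood at 15.6, 17.6 and 17 in control and 8.24, 9.03 and 9.93 in Al libraries, with a difference of -0.88 ± 0.11 (adjusted P = 0.000184). Neither gene had an Al library within its control range. Lig4, on chr8:9969049-9977686, encodes the ligase that seals the joined ends. It stood at 2.46, 2.38 and 2.75 in control and 7.15, 5.56 and 5.51 in Al libraries, a rise of 1.22 ± 0.15 (adjusted P = 0.000188). Every Al value of Lig4 was above every control value. With a common sum the rise shrank to 0.46 and was not called. The partners Xrcc5, which encodes Ku80, and Xrcc4, the scaffold of the ligase, differed by -0.14 and -0.28 and were not called.

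Mismatch repair had 1 gene in each class. Msh6, on chr17:87975062-87990892, encodes the subunit of the sensor dimer that recognizes single mismatches. It stood at a scaled FPKM of 46.3, 44.4 and 47.8 in control and 18.5, 20.8 and 27.7 in Al libraries, with a difference of -1.06 ± 0.14 (adjusted P = 0.000303). The groups were apart, with Al replicate 3 nearest to control. A pseudogene, Gm11855, holds a close copy of Msh6, so that some of its reads may be uncertain. Pms2, on chr5:143909964-143933968, encodes the endonuclease subunit that nicks the strand to be repaired. It stood at 1.72, 1.90 and 1.68 in control and 4.11, 4.97 and 3.62 in Al libraries, a rise of 1.20 ± 0.17 (adjusted P = 0.000331). The lowest Al value was well above the highest control value, but with a common sum the difference was 0.45 and not called. Msh3, the alternative subunit of that dimer for longer loops, differed by 0.10 and was not called.

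In base excision and single-strand break repair, 4 of 9 genes were called lower and 1 higher, or 44.4% and 11.1% beside 24.4% and 26.2% of all tested genes. Apex1, on chr14:50924968-50927139, encodes the endonuclease that cuts at abasic sites. It stood at a scaled FPKM of 49.4, 52.7 and 53.1 in control and 153, 152 and 122 in Al libraries, a mean 2.75 times the control mean. The log2 difference was 1.45 ± 0.12 (adjusted P = 2.57e-05). It was smaller under the other scalings but still called, at 0.96 with FPKM as deposited, 0.66 with a common sum and 0.91 under quantile normalization. Lig3, on chr11:82781108-82804274, encodes the ligase that seals single-strand breaks. It stood at 10.7, 10.4 and 10.8 in control and 4.53, 4.70 and 5.92 in Al libraries, with a difference of -1.07 ± 0.13 (adjusted P = 0.000162). The groups of Apex1 and of Lig3 were both fully separated, in opposite directions.

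Xrcc1, the scaffold that carries LIG3, was at 13.9, 15.7 and 15.5 in control and 8.39, 10.9 and 10.1 in Al libraries, a difference of -0.62 ± 0.12 (adjusted P = 0.00257). Its groups did not overlap, but without Al replicate 1 the difference was -0.50 and the call was lost. Ogg1, which removes oxidized guanine, differed by -0.65 and Parp2, a polymerase that marks breaks with ADP-ribose, by -0.61. Both were called lower, but neither passed under quantile normalization (-0.43 for each). The Ogg1 call was lost without control replicate 1 (-0.57) and without Al replicate 2 (-0.57). The Parp2 call was lost without Al replicate 1 (-0.43) and without Al replicate 2 (-0.56). The glycosylases Neil1, Mutyh and Ung differed by -0.21, -0.14 and 0.03, and Parp1, the main ADP-ribose polymerase at breaks, by 0.01, and none was called. Parp1 was at -0.48 with FPKM as deposited and under quantile normalization and at -0.78 with a common sum.

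None of the 4 Fanconi genes was called in either direction by limma, and of them only Fancd2 had an unadjusted P under 0.05 (0.0141). Fancd2, the protein ubiquitinated at crosslinks, was at a scaled FPKM of 4.74 ± 0.561 in control and 3.40 ± 0.382 in Al libraries (SD, n = 3 each). Its difference of -0.46 (adjusted P = 0.0251) was under the threshold for size. Fancl, the ubiquitin ligase of the pathway, differed by -0.27, Fanci, the partner of FANCD2, by -0.22, and Fanca, of the core complex, by -0.14. With FPKM as deposited all 4 passed as lower, with values from -0.94 to -0.63.

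Nucleotide excision had 2 of 4 genes called higher, beside 26.2% of all tested genes, and none lower, too few genes for a statement about the route. Ercc1, on chr7:19344778-19356524, encodes the partner of the nuclease XPF that cuts on the 5′ side of a lesion. It stood at a scaled FPKM of 6.79, 6.22 and 8.99 in control and 66.1, 97.9 and 36.9 in Al libraries, a mean 9.14 times the control mean. The log2 difference of 3.08 ± 0.31 (adjusted P = 6.21e-05) was the largest among the 45 genes. The 3 Al libraries spread more widely than those of the other repair genes, and all lay far above control. Leaving out 1 library at a time moved the difference between 2.76 and 3.47, and it was 2.60 with FPKM as deposited and 2.30 with a common sum. Ercc2, on chr7:19382010-19395694, encodes the XPD helicase of TFIIH and was at 6.96 ± 0.423 in control and 12.2 ± 1.37 in Al libraries (SD, n = 3 each), a difference of 0.80 (adjusted P = 0.000492). It was not called with FPKM as deposited (0.31) or with a common sum (0.02). The XPB helicase gene Ercc3 differed by 0.42, and Ercc4, which encodes XPF, by 0.08, and neither was called.

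**Figure D3:**
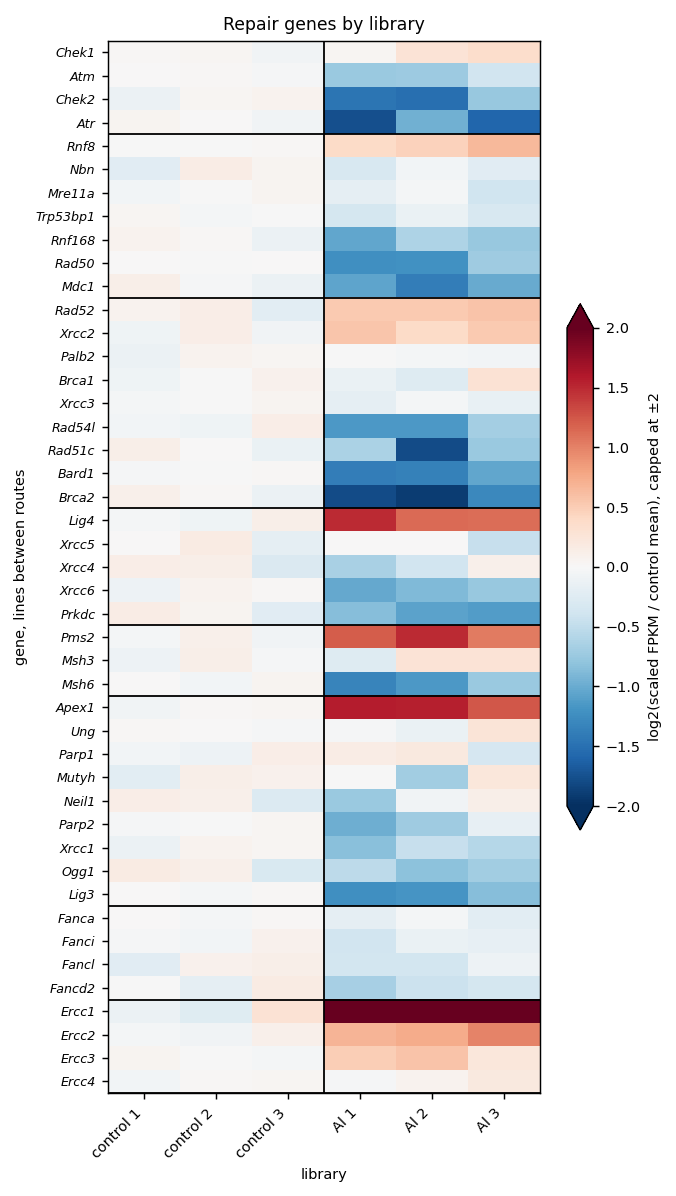
Scaled FPKM of the 45 genes in each library relative to the control mean of the gene, on a log2 scale capped at 2 in either direction, with lines between the routes in the order of the text. Blue rows of genes called lower and red rows of genes called higher stand in the 3 Al columns, and Al replicate 3 is paler than the other Al libraries in many blue rows.

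Several of these genes share exon bases with another gene, and although the library kit keeps the strand, whether reads were counted by strand is not stated. By GENCODE annotation, 17 of the 45 share exon bases with another gene found in the table, among them 2 of the 5 called higher and 6 of the 17 called lower. Neighbours listed there under another symbol may have been missed. With all annotated genes as neighbours, 23 of the 45 share exon bases, among them 4 of those called higher and 7 of those called lower. The end of Ercc1 overlaps that of Cd3eap on the opposite strand over 106 exon bases, within chr7:19356014-19356524, or 3.41% of the exon bases of Ercc1. Cd3eap, which encodes a subunit of RNA polymerase I, stood at a scaled FPKM of 7.79, 7.39 and 7.65 in control and 54.6, 53.7 and 31.9 in Al libraries. Both genes were far higher in every Al library. The Cd3eap difference was 2.56 (adjusted P = 1.82e-05). How the counting treated reads of the shared bases is not stated, and their part in the Ercc1 value was not tested.

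Ercc2 shares 744 exon bases with Klc3, a kinesin light chain gene on the opposite strand that was called lower, with a difference of -0.63. It also shares 1025 bases, 24.6% of its exon bases, with the antisense gene Gm26852, which was not analysed here. Apex1 shares 877 bases, 61.7% of its exon bases, with Pip4p1 on the opposite strand, for which no value was used here. Pms2 shares 394 bases with Gm42421 and 85 with Rsph10b on its own strand, and neither was analysed here. Of the 6 genes called lower that share exon bases with a gene of the table, Xrcc6 (344 bases with Desi1) and Ogg1 (232 with Camk1) had neighbours that were called lower as well, at -1.29 and -0.67. The neighbours of the other 4 were not called. Lig3 shares 1826 bases, 25.1% of its exon bases, with Rffl (-0.75), and Rad54l shares 1184, or 15.4%, with Lrrc41 (0.35). Msh6 shares 34 bases with Fbxo11 (-0.17), and Atr shares 726 with the antisense gene 1700065D16Rik (1.38). The part of shared reads in these values was not tested.

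Many of these proteins work as pairs, and the ratio of 2 genes within a library does not change when each library is divided by a single factor, although quantile normalization does change it. Ratios of FPKM were computed for 15 pairs, chosen with the values of the genes known. In 13 of them the Al libraries and the control libraries did not overlap. Groups were also apart in many single genes, upward in 35.1% and downward in 33.1% of all tested genes, and no share over other pairs was computed, so the count of 13 is a description of chosen pairs. An exact two-sided permutation test of 3 against 3 libraries cannot give a P below 0.1, which these 13 pairs reached (0.115 after adjustment over the 15 pairs), so no single ratio passed a threshold of 0.05.

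Bard1 per Brca1 was 0.720, 0.689 and 0.662 in control and 0.292, 0.324 and 0.276 in Al libraries. The libraries of each group lay close together, and the log2 ratio differed by -1.22 ± 0.08 (SE). Chek1 per Atr was 1.25, 1.31 and 1.28 in control and 4.45, 3.02 and 4.85 in Al libraries. Chek1 RNA was thus above Atr RNA in both groups, and further above it in Al libraries. These are RNA levels, and the kinases themselves were not measured here. Rad50 per Mre11a was 1.55, 1.48 and 1.44 in control and 0.716, 0.664 and 1.20 in Al libraries, a shift of -0.85 ± 0.27, with Al replicate 3 near control. Nbn per Mre11a, in the same complex, averaged 0.839 ± 0.0982 in control and 0.847 ± 0.0912 in Al libraries (SD, n = 3 each; exact permutation P = 0.8).

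Brca2 per Palb2 shifted by -1.63, Rnf168 per Rnf8 by -1.30 and Msh6 per Msh3 by -1.17 on the log2 scale, each with the Al libraries below control. Xrcc6 per Xrcc5 averaged 1.85 ± 0.236 in control and 1.13 ± 0.325 in Al libraries (SD, n = 3 each), with Al replicate 3 at 1.50 nearest to control. Chek2 per Atm shifted by -0.62, Lig3 per Xrcc1 by -0.46 and Fancd2 per Fanci by -0.25. Lig4 per Xrcc4 went from 1.69 ± 0.422 to 5.14 ± 2.02, and Ercc1 per Ercc4 from 2.71 ± 0.494 to 23.7 ± 11.3 (SD, n = 3 each). Ercc2 per Ercc3 shifted by 0.38. Parp2 per Parp1 overlapped between the groups, with a shift of -0.63 ± 0.40 (exact permutation P = 0.4).

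**Figure D4:**
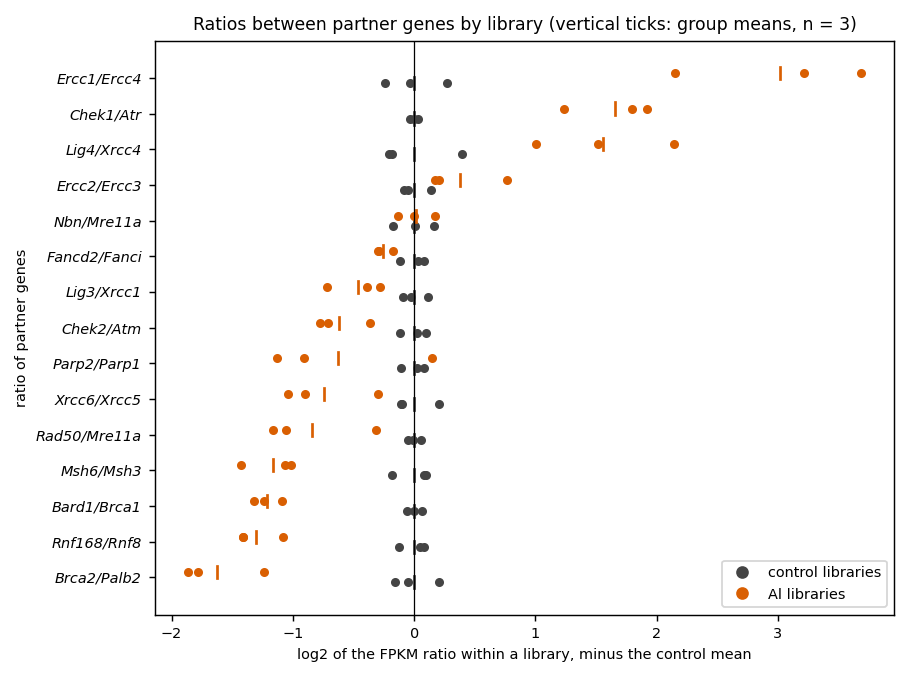
Log2 ratio of FPKM between partner genes within each library, minus the control mean of the pair, for 15 pairs. Grey points are control libraries, orange points are Al libraries and ticks are group means of 3 libraries. The Al points of 13 pairs lie outside the control points, and those of Nbn per Mre11a and Parp2 per Parp1 overlap them.

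Counts of calls depended on the scaling between libraries. With FPKM as deposited, 28 of the 45 genes were called lower and 4 higher, beside 42.0% and 14% of all tested genes. With a common sum for every library, written TPM, 35 were called lower and 2 higher, beside 53.1% and 9.30%. With quantile normalization 14 were called lower and 7 higher, beside 24.2% and 22.2%. The median difference of all tested genes was 0.03 with size factors, -0.43 without scaling, -0.72 with TPM and -0.03 under quantile normalization. Relative to it, the median of the repair genes lay at -0.24, -0.25, -0.27 and -0.02 in the same order, so that under quantile normalization the repair genes as a group did not stand apart in their median. Of all calls among the 45 genes, the higher share was 22.7% with size factors, 12.5% without scaling, 5.41% with TPM and 33.3% under quantile normalization. The same share over all tested genes was 51.8%, 25.0%, 14.9% and 47.9%.

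Under all 4 scalings, 14 of the 45 genes were called lower, 31.1% of them, beside 20.5% of all tested genes. These were Atr, Chek2, Rad50, Mdc1, Rnf168, Brca2, Bard1, Rad51c, Rad54l, Xrcc6, Prkdc, Msh6, Xrcc1 and Lig3. Called higher under all 4 were Ercc1 and Apex1, 4.44% of the repair genes beside 8.74% of all tested genes. These 16 genes are the falls and rises that no choice among the 4 scalings removed. Atm, Ogg1 and Parp2 among the falls and Lig4, Pms2 and Ercc2 among the rises passed under some scalings only.

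**Figure D5:**
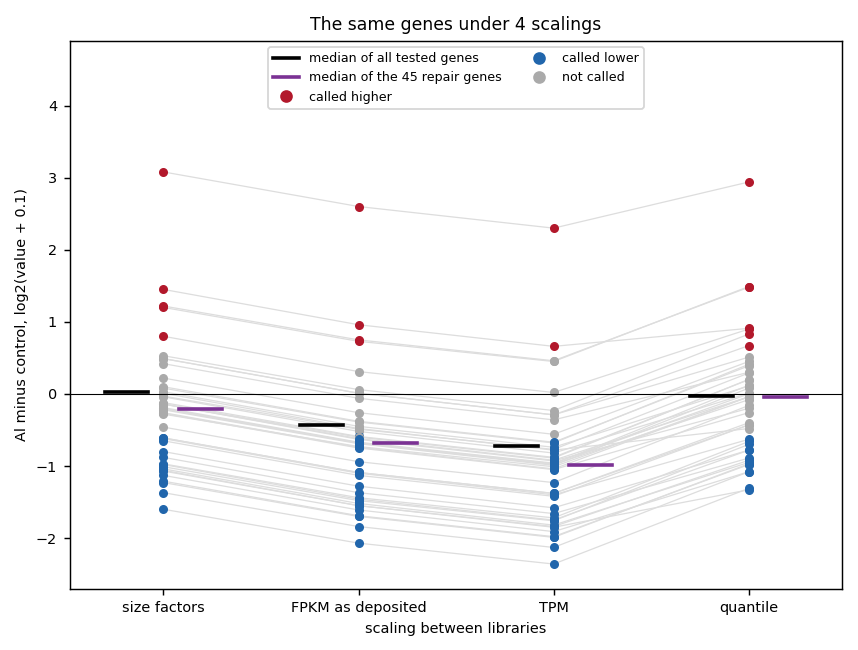
Difference between Al and control for the 45 genes under 4 scalings between libraries, as log2(value + 0.1), with a thin line for each gene and colours for its call. Black bars mark the median of all tested genes and purple bars that of the repair genes, which lies at -0.24 to -0.27 relative to it under the first 3 scalings and at -0.02 under quantile normalization.

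Al replicate 3 stood closer to control than the other Al libraries in many of the falling genes. Of the 17 genes called lower, 11 had their highest Al value in that library, or 64.7%, beside 53.6% of all genes called lower. Chek2, Rad50, Brca2, Msh6 and Parp2 were among them. Without Al replicate 3 the counts were again 17 lower and 5 higher, and without Al replicate 1 or Al replicate 2 they were 14 lower and 5 higher.

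The genes called lower were longer than most, with a median length of 5153 bases beside 4090 over the 45 genes and 3288 over all tested genes. Across the 45 genes the log2 difference had a Pearson r of -0.337 and a Spearman rho of -0.324 with length, and over all tested genes -0.157 and -0.165. With GC content of the transcripts the r was 0.328 over the 45 genes and 0.0366 over all tested genes. These are correlations across genes measured in the same 6 libraries, and genes are not independent replicates. After the trend with length over all genes was removed, 15 genes were called lower and 6 higher, without Atm (-0.29) and Xrcc1 (-0.56) among the falls and with Rad52 among the rises. After the same with GC content the counts were 16 and 5, again without Atm (-0.54). The part of length or GC content in single differences was not tested further.

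A list of 82 other repair genes, written from textbook knowledge, was counted in the same fit. Of the 81 tested, 17 were called higher and 23 lower, or 21% and 28.4%, near the 26.2% and 24.4% of all tested genes, with a median of -0.09. These counts turned with the scaling, to 5 higher and 40 lower with FPKM as deposited, 3 and 53 with TPM and 17 and 13 under quantile normalization, where more were higher than lower. The largest rise was that of Fen1, the flap endonuclease of replication and base excision, from a scaled FPKM of 55.1 ± 2.87 to 214 ± 36.0 (SD, n = 3 each), a difference of 1.94. Ercc8, a ubiquitin ligase adaptor of transcription-coupled repair, rose by 1.58, Cetn2, a centrin that binds the lesion sensor XPC, by 1.51, and Gtf2h1, a subunit of TFIIH, by 1.32. Rad9a, of the checkpoint clamp that helps to activate ATR, rose by 1.27 and Wee1, a kinase that holds CDK1 inactive, by 1.02.

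Ddb2, a sensor of ultraviolet lesions, had a difference of -1.70 and went from 1.93 ± 0.255 to 0.542 ± 0.193 (SD, n = 3 each). The largest fall in the list was that of Fance, of the Fanconi core complex, from 13.9 ± 1.27 to 4.24 ± 0.919 (SD, n = 3 each), a difference of -1.71, and Fancg of the same complex had -1.26. Mpg, which removes alkylated bases, had -1.51, Rmi2, a partner of the BLM helicase, -1.50 and Wrn, a related helicase, -1.30. By group, to be read beside the same 26.2% and 24.4%, the other checkpoint genes had 5 higher and 1 lower of 12, and the other recombination genes 3 higher and 7 lower of 22. The other nucleotide excision genes had 4 higher and 6 lower of 15, or 26.7% and 40%, and the other Fanconi genes 2 and 2 of 9. The other base excision genes had 1 higher and 4 lower of 15, the other end joining genes 2 and 2 of 6, and the other mismatch genes 0 and 1 of 2.

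Of 19 targets of p53 that were tested, 9 were called higher and 3 lower, or 47.4% and 15.8% beside 26.2% and 24.4% of all tested genes, with a median of 0.57. Of 21 S phase genes, 8 were called higher and 2 lower, or 38.1% and 9.52%, with a median of 0.40. Both lists were counted with size factors only, and no counts were made under the other scalings. Counts of the repair genes turned with the scaling, and those of these lists may do so too. Neither list was tested against the repair genes.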

How the data were processed

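RNA was sequenced from 3 control and 3 Al samples of HT22 cells, grouped by the letters in their titles. The authors deposited FPKM, 1 value per gene symbol and library. Their paper names Trimmomatic, SortMeRNA, HISAT2 and the build GRCm38, whereas the submitters' processing notes name fastp, HISAT2, HTSeq and GRCm39, and the annotation and the strand setting of the counting are not given in the sources used here. The authors tested counts with DESeq2, which was not run here.

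FPKM steps gave whole reads, within a relative tolerance of 1e-09, for 17688 of 17688 genes above 0. In a simulation of 4334 genes the recovery was exact for 99.1%, and a value of 0 allows up to 3 expected reads. FPKM were divided by median-of-ratios size factors (0.802 to 1.21), and log2(value + 0.1) was fitted with limma 3.58.1 in R 4.3.3 (lmFit, eBayes with trend, Benjamini-Hochberg adjustment) for genes whose mean FPKM reached 0.1. On simulated counts for 12409 genes in this design, 100% of 100 genes changed by a log2 of 1 were recovered and 0.295% of unchanged genes were called. The simulation changed few genes, as many up as down and none near the filter, with a fixed spread not taken from these libraries. In the data 26.2% of tested genes were called higher and 24.4% lower, so these rates need not hold for them. Coordinates and overlaps came from GENCODE M21 on GRCm38, promoters from RefSeq on GRCm38.p6, and close copies (at least 200 bases at 90% identity) from minimap2 2.31-r1302. Python 3.11.15 with pandas 2.3.3 was used for the tables.

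The genes, the lists and the routes were chosen with earlier results of these data known, and the partner pairs after their values had been seen. Values for every library are given for the 4 kinases, the largest called rise and called fall in each route and the genes called under all 4 scalings. Of the other repair genes the 6 largest rises and 6 largest falls among called genes whose mean FPKM reached 1 are named. Alternatives were the scaling, the pseudocount, the filter, the trend, a replicate block, stricter thresholds, voom, thinned reads, length, GC content and each library left out.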

Additional observations from a re-analysis of the deposited data

How the results depend on the processing

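Under 19 alternatives the 45 genes gave 855 values, of which 767 kept their direction and side of the threshold, 21 lost a call, 28 gained one without a change of sign and 39 changed sign, and none of the 22 called genes changed sign. Of the 39, 4 were then called lower, those of Msh3, Ung, Parp1 and Ercc4 with TPM. The number called higher was 2 with TPM. The number called lower was 28 with FPKM as deposited, 35 with TPM and 9 at an adjusted P under 0.05 with an absolute log2 difference over 1 (4 higher). The median difference was -0.68 without scaling, -0.98 with TPM and -0.04 under quantile normalization. As deposited, the uncalled genes Chek1 (-0.26), Ercc3 (-0.06), Ercc4 (-0.39), Msh3 (-0.38), Parp1 (-0.48) and Ung (-0.45) changed sign. With TPM so did Chek1 (-0.56), Ercc3 (-0.36), Ercc4 (-0.68), Msh3 (-0.67), Parp1 (-0.78), Ung (-0.74), Rad52 (-0.23), Rnf8 (-0.29) and Xrcc2 (-0.29). With quantile normalization Brca1 (0.01), Fanci (0.08), Mutyh (0.20), Neil1 (0.12), Palb2 (0.29), Xrcc3 (0.20) and Parp1 (-0.48) did. Removing the length trend did so for Brca1 (0.22), Palb2 (0.02) and Trp53bp1 (0.02), removing the GC trend for Brca1 (0.01) and Parp1 (-0.03), and voom and thinned reads for Parp1 (-0.01 in both). Leaving out 1 library at a time moved Brca1 between -0.19 and 0.08, Xrcc5 between -0.24 and 0.03, Mutyh between -0.31 and 0.13, Ung between -0.06 and 0.13, Neil1 between -0.37 and 0.04 and Parp1 between -0.08 and 0.19. It left 14 to 17 genes called lower and 5 called higher. The cause of these changes was not tested. With pseudocount 1, 13 were called lower, without Atm (-0.53), Ogg1 (-0.56), Parp2 (-0.54) and Xrcc1 (-0.57). Samples with the same replicate number did not deviate together (correlations -0.0329, -0.0257 and -0.0733). This cannot show whether they were handled as pairs, which the labels do not state. With the replicate number as a block the counts were 5 higher and 17 lower. Voom used median-of-ratios factors in place of the planned TMM.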
